A study of Mus musculus with 4 samples.

Results

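The transcripts of 8 neutrophil granule genes were examined in sorted mouse eosinophils. The genes were Mpo, Elane, Prtn3 and Ctsg, whose products fill the primary (azurophil) granules, and Ltf, Camp, Ngp and Lcn2, whose products fill the secondary (specific) granules. They were chosen by symbol in the deposited table, which lists 5807 genes that the authors called different between the tissues, and all 8 of the 8 were listed. Because the table holds only genes called different, that the members differ between the tissues is part of how the table was made and is given here as a description. Eosinophils came from wild-type (WT) mice, 6 to 8 weeks old, that had received LLC (Lewis lung carcinoma) cells into the pleural space, and were sorted from bone marrow (BM) and from pleural lavage fluid (MPE, called pleural cavity eosinophils below), with 2 libraries per tissue. By the sample titles and the methods both groups carried the tumor cell injection, and the sort was made on the second day after it, whereas the study's results text calls the bone marrow cells naïve, a difference that was not settled here.

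The gates of the tissues were not the same. Bone marrow cells were enriched with an antibody to the macrophage and eosinophil antigen that Adgre1 encodes and sorted as CD45+ SiglecF+ cells of high side scatter, whereas pleural cells were enriched with a CD45 antibody and sorted with additional gates, positive for CD11b and the Adgre1 antigen and CD11c- Gr1-/low. Tissue and gate cannot be told apart in this comparison. The values are the authors' mean reads, RSEM estimates averaged over the libraries of each tissue, and no value per library was analysed here, so no spread between mice and no test between the tissues can be given. The listed genes summed to 11762543 mean reads in bone marrow and 15947438 in pleural cavity eosinophils, which is a sum over listed genes and not a library total. Ratios were scaled to these sums after adding 0.5 mean reads to each mean, and the 95% intervals below are exact counting intervals of the reads summed over the libraries, which do not cover the spread between libraries. Of all listed genes, 1943 differed by less than 2-fold on this scale, although the authors listed only genes above 2-fold in their own comparison. The scale used here thus departs from theirs. Lower and higher below refer to the scale used here. The authors called a larger share of the listed genes lower, so many genes that are higher here must be lower in their comparison. Which genes these are was not determined, and small ratios in particular may differ in direction. In bulk samples fewer cells of a type and less RNA per cell cannot be told apart.

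Neutrophil granules are made in sequence during maturation in the bone marrow. Primary granule proteins are transcribed in promyelocytes and secondary granule proteins in myelocytes and metamyelocytes, and mature neutrophils carry the finished proteins while the transcripts of both sets are largely shut off. Eosinophils have granules of their own, filled with major basic protein, eosinophil peroxidase and ribonucleases, and mature in the same marrow.

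All 8 granule genes had far fewer reads in pleural cavity than in bone marrow eosinophils, and all 8 were more than 64-fold lower. Of all listed genes, 57.5% were lower, 50.5% were more than 2-fold lower and 7.56% were more than 64-fold lower. The share lower was 48.6% among genes with more than 3 mean reads per tissue, and 64.3% of all listed genes when scaled to the median ratio of well-covered genes, so the direction of genes with small ratios depended on the scaling. The study's own comparison called a larger share of the listed genes lower than any of these shares. Among the 78 listed genes with at least the bone marrow reads of the least abundant member, 56.4% were lower, 50.0% were more than 2-fold lower and 21.8% were more than 64-fold lower, the last a count of 17 that includes the 8 members. The median log2 ratio of the members, pleural cavity over bone marrow, was -9.38, and that of all listed genes was -1.02. Together the members made up 6.97% of all listed bone marrow reads and 0.0113% in pleural cavity eosinophils, a summed fold of 616.

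Mpo, which encodes the heme peroxidase of primary granules, had 196096.5 mean reads in bone marrow and 374 in pleural cavity eosinophils. Elane, which encodes neutrophil elastase, had 80228.5 and 135.5 mean reads. These were the largest primary granule values in the marrow, and Mpo had more reads than Elane in both tissues. Ctsg, which encodes the serine protease cathepsin G, had 19611.5 mean reads in bone marrow and 38 in pleural cavity eosinophils, the fewest of the members there. Prtn3, which encodes proteinase 3, had 20094 mean reads in bone marrow, close to Ctsg, but 157 in the pleural cavity, above Ctsg and with a counting interval that overlaps that of Elane (140 to 175 and 120 to 153).

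Among the secondary granule genes, Ngp, which encodes neutrophilic granule protein, a cystatin-like relative of the cathelicidins, had 263228.5 mean reads in bone marrow and 546.5 in pleural cavity eosinophils, the highest of the members in both tissues. Camp, the mouse cathelicidin, a precursor of an antimicrobial peptide, had 142003.5 and 281.5. Ltf, which encodes the iron-binding protein lactoferrin, had 81285.5 and 178.5 mean reads, next to Elane in the marrow. Lcn2, which encodes neutrophil gelatinase-associated lipocalin, a binder of bacterial siderophores, had the fewest marrow reads of the members, 17701, and 95 in the pleural cavity. By bone marrow reads, 5 of the 8 were among the first 20 listed genes, with Ngp at rank 2, Mpo at 4 and Camp at 8, and the lowest rank was 78, that of Lcn2. In pleural cavity eosinophils the ranks lay between 2768 for Ngp and 4174 for Ctsg.

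**Figure D1:**
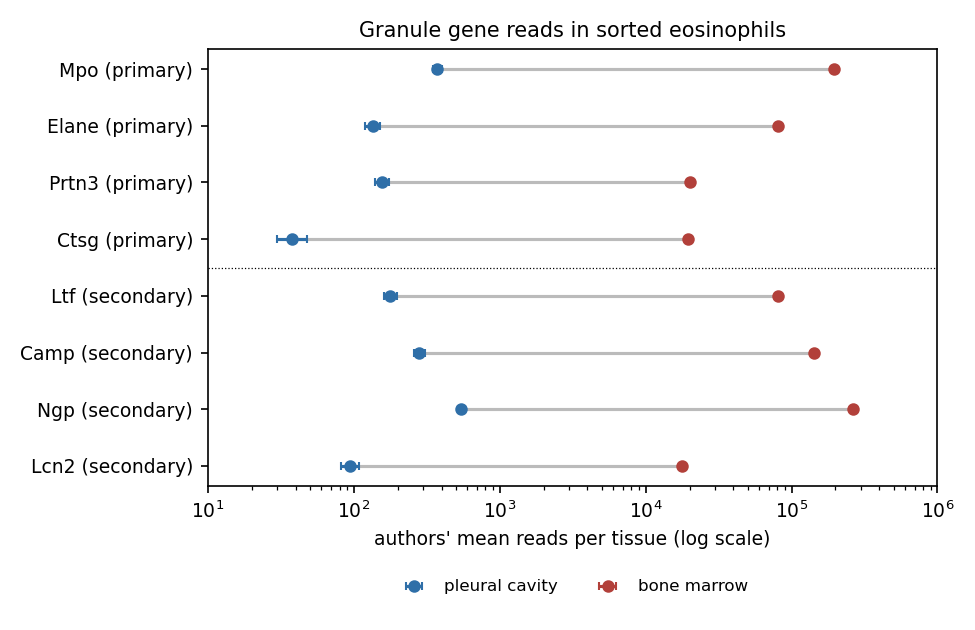
Authors' mean reads of each granule gene (log axis) in bone marrow and pleural cavity eosinophils, joined by a grey line; bars are 95% counting intervals and do not cover the spread between libraries. The bone marrow points lie between 17701 and 263228.5 mean reads and the pleural cavity points between 38 and 546.5.

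Levels between genes can be compared only per length, here per kilobase of the longest protein-coding transcript. On that scale Ngp had 215408 and Camp 187340 reads per kilobase in bone marrow eosinophils, followed by Elane with 81533 and Mpo with 71308. Ltf stood at 29634 reads per kilobase, and Prtn3, Ctsg and Lcn2 lay close together at 19604, 19572 and 19345. In the pleural cavity Ngp and Camp again led, with 447 and 371 reads per kilobase, and Prtn3 came next with 153, followed by Elane with 138 and Mpo with 136, an order within the counting error for Prtn3 and Elane. Among the 5641 listed genes with a transcript length, Ngp ranked 5 and Camp 7 by bone marrow reads per kilobase.

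The size of the difference fell into a narrow band for 6 of the members and was smaller for the other 2. The scaled fold was 800 for Elane (95% counting interval 713 to 908), 710 for Mpo (662 to 765), 691 for Ctsg (559 to 888), 683 for Camp (630 to 744), 652 for Ngp (615 to 694) and 616 for Ltf (556 to 687). These 6 spanned 0.38 on the log2 scale and held members of both granule types. Only the intervals of Elane on one side and of Ngp and Ltf on the other did not overlap among them. Prtn3 was 173-fold lower (155 to 195) and Lcn2 251-fold lower (219 to 293), and their intervals overlapped neither each other nor those of the other 6. One of the 2 belongs to each granule type. A log2 ratio below -9 was met by 23 listed genes, or 0.396% of the table. Many listed genes have too few bone marrow reads to reach it. Among the 78 listed genes with at least the bone marrow reads of the lowest member, 10 met it, of which 4 were not members.

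**Figure D2:**
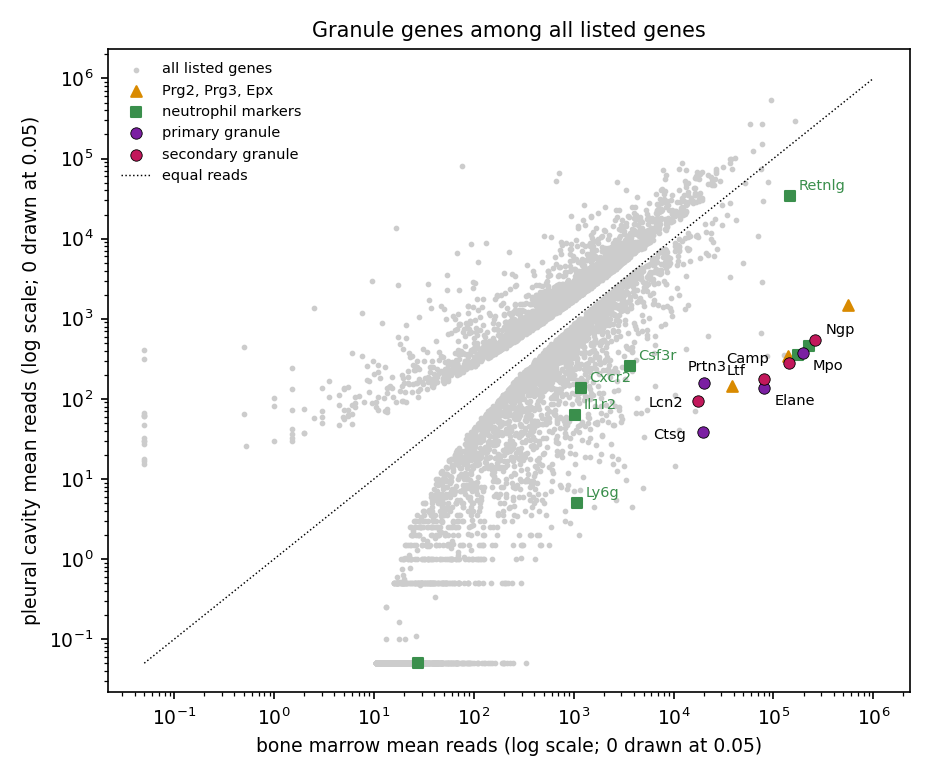
Authors' mean reads of all 5807 listed genes in bone marrow (x, log axis) and pleural cavity eosinophils (y, log axis), with means of 0 drawn at 0.05; the dotted line marks equal reads. The granule genes lie far below it, with Prtn3, Lcn2 and Prg3 (log2 ratios of -7.43, -7.97 and -8.46) nearer to it than the other 6 members, Epx, S100a8 and S100a9 (-9.64 to -9.11), and the neutrophil markers Retnlg, Csf3r, Cxcr2 and Il1r2 lie closer to equal reads.

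Shares within a tissue need no scaling for depth. The primary granule genes held 38.5% of the members' reads in bone marrow (95% counting interval 38.5 to 38.6) and 39.0% in pleural cavity eosinophils (37.4 to 40.6). By reads, the balance between the granule types thus differed by less than the counting error of the pleural reads. Per kilobase the shares were 29.8% and 32.0%. No counting interval was computed for these, so the same cannot be said per kilobase. Within the primary granule genes, Mpo had 2.44 reads per Elane read in bone marrow and 2.76 (2.40 to 3.18) in the pleural cavity, and Ctsg had 0.244 and 0.280 (0.215 to 0.363), values that overlap within counting error for Mpo and for Ctsg. Prtn3 had 0.250 reads per Elane read in bone marrow (0.248 to 0.253) and 1.16 in the pleural cavity (0.982 to 1.37). Within the secondary granule genes, Camp had 0.539 reads per Ngp read in bone marrow and 0.515 (0.464 to 0.571) in the pleural cavity. Lcn2 had 0.218 reads per Ltf read in bone marrow (0.215 to 0.220) and 0.532 in the pleural cavity (0.444 to 0.636). Prtn3 thus made up 2.45% of the members' reads in bone marrow and 8.69% in the pleural cavity, and Lcn2 2.16% and 5.26%, while Ngp kept the largest share with 32.1% and 30.3%. Over the 8 genes, which share their libraries and differ in length, Spearman's rho between the bone marrow and pleural cavity reads was 0.952, given as a description. This order largely follows from the near-equal folds of 6 of the members, so rho is not a separate result.

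**Figure D3:**
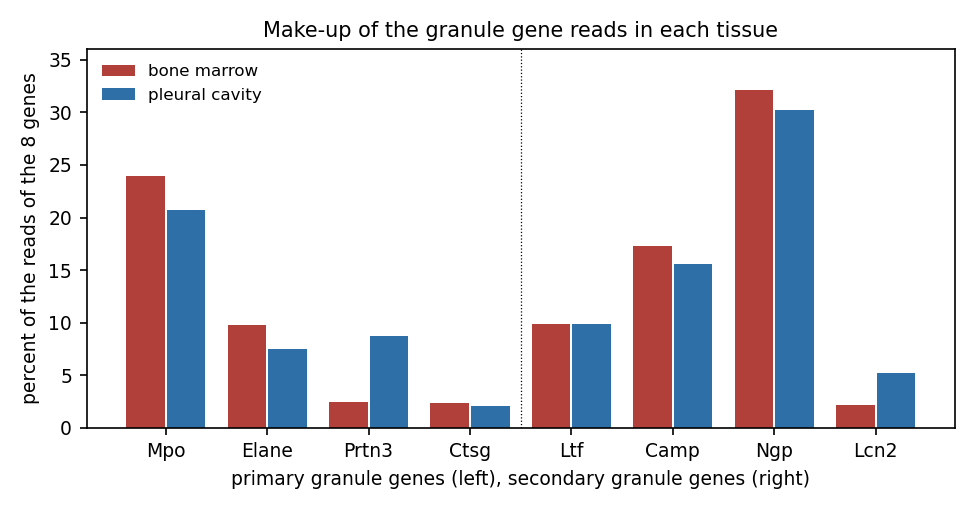
Percent of the summed reads of the 8 granule genes that falls on each gene, in bone marrow and in pleural cavity eosinophils. Prtn3 makes up 2.45% and 8.69% and Lcn2 2.16% and 5.26%, whereas Ngp makes up 32.1% and 30.3% and Mpo 23.9% and 20.7%.

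Positions are given on GRCm38. Prtn3 (chromosome 10, 79874476 to 79883174, plus strand) and Elane (79886247 to 79888215, plus strand) are 3073 bases apart. Camp (chromosome 9, 109847379 to 109849617, minus strand), Ngp (110419747 to 110423012, plus strand) and Ltf (111019271 to 111042767, plus strand) lie on the same chromosome over 1.195 Mb, none within 100 kb of another. Mpo lies on chromosome 11 (87793581 to 87804413, plus strand), Ctsg on chromosome 14 (56099881 to 56102574, minus strand) and Lcn2 on chromosome 2 (32384633 to 32388252, minus strand). None of the 8 had fractional mean reads, which RSEM gives where it shares a read among like genes and which 25.8% of the listed genes had.

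Most listed protein-coding genes that start within 100 kb of a member did not share its large difference. Many genes in these windows were not listed, with 6 of 15 listed for Elane and 1 of 9 for Ctsg. Besides the members themselves, 18 such neighbors were listed, with 9 lower and 9 higher in the pleural cavity and a median log2 ratio of -0.32, and 12 of the 18 were lower under the scaling to the median ratio of well-covered genes. Of all listed genes, 57.5% and 64.3% were lower under these scalings, so the direction of the neighbors was near that of the whole list. Those more than 64-fold lower were 3 of the 18, beside 7.56% of all listed genes. Epx, the eosinophil peroxidase gene 82.0 kb from Mpo, had 139061.5 mean reads in bone marrow and 341.5 in pleural cavity eosinophils. Mcpt8, a basophil protease gene 17.3 kb from Ctsg, had 2668 and 5.5. Prss57, which encodes a neutrophil serine protease and lies 83.5 kb from Prtn3, had 5436.78 and 72.055, with fractional reads. In contrast, Ccrl2, which encodes a chemerin receptor 38.2 kb from Ltf, had 787 and 3452.5 mean reads, and Kif9, a kinesin gene 57.2 kb from Ngp, had 44.5 and 384.5. The other lower neighbors were Tspoap1, Plppr3, Med16, R3hdm4, Nme6 and Cdc25a, and the other higher ones Supt4a, Palm, Fstl3, Lrrfip2, Map4, Klhl18 and Scap. The smallest of the higher log2 ratios were those of Lrrfip2, Supt4a and Scap at 0.26, 0.31 and 0.38. The direction of higher neighbors with small ratios may differ from that in the authors' comparison. No listed gene was found within 100 kb of Lcn2.

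The promoters of the members were searched because the genes are lower together. RefSeq gave 1 promoter for each of the 8 genes on GRCm38.p6, and the 250 bases before the start were searched on both strands for GAGGAA, a core bound by PU.1, TTNNGNAA, bound by C/EBP factors, and AGATAA, bound by GATA factors, and no match overlapped another in the member promoters. The factors PU.1 and C/EBP drive granulocyte genes, and GATA1 is needed for eosinophils. GAGGAA was found in all 4 primary granule promoters, with 2 matches in that of Mpo, in 2 of the 4 secondary granule promoters, and in 23.3% of all 32851 promoters. TTNNGNAA was found in none of the 4 primary and in 3 of the 4 secondary granule promoters, those of Ltf, Ngp and Lcn2, and in 36.8% of all promoters. AGATAA was found in the Ltf promoter and in 9.99% of all. A match describes the letters only. The 4 primary granule promoters are shown for their shared GAGGAA and those of Ltf and Ngp for their TTNNGNAA matches, each from base -250 to the first annotated exon, with matches on either strand in capitals. The last match of Ngp lies in annotated exon and is not printed.

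Mpo, chr11:87793534-87793580, plus strand: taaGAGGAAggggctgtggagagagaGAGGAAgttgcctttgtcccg
Elane, chr10:79886062-79886246, plus strand: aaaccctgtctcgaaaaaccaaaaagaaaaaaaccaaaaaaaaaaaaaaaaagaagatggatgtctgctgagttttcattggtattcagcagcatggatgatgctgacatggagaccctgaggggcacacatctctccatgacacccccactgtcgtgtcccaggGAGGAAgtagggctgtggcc
Prtn3, chr10:79879417-79879613, plus strand: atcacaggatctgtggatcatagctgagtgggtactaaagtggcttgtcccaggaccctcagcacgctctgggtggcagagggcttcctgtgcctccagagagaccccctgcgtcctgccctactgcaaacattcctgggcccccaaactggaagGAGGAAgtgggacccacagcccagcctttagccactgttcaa
Ctsg, chr14:56102575-56102824, minus strand: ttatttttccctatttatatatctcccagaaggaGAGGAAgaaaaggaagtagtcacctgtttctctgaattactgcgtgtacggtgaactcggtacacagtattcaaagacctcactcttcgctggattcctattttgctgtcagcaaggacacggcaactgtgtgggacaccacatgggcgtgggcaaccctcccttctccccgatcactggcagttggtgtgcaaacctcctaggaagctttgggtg
Ltf, chr9:111019042-111019270, plus strand: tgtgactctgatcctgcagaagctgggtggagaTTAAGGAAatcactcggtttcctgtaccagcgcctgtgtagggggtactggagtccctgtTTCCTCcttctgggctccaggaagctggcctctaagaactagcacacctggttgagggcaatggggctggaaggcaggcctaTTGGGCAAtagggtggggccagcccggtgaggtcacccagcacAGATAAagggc
Ngp, chr9:110419558-110419746, plus strand: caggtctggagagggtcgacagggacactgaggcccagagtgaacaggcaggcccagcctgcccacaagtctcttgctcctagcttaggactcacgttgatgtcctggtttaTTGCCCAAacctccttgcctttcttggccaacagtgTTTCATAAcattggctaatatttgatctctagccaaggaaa

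Counted from the RefSeq start, the GAGGAA matches of the primary granule promoters began at -247 and -224 in Mpo, -85 in Elane, -95 in Prtn3 and -216 in Ctsg, all on the strand of the gene. The neighbors Elane and Prtn3 thus had their match at a similar distance. The RefSeq start of Prtn3 lies inside the annotated gene, whose own start was used for the neighbor distances.

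Other neutrophil granule proteins spanned a wide range. Of 14 genes on that list, 11 were listed, 8 of them lower and 3 higher, with a median log2 ratio of -5.19. Those more than 64-fold lower were Cd177, a neutrophil surface glycoprotein, with 16479.5 mean reads in bone marrow and 70 in pleural cavity eosinophils, Olfm4 (2723 and 12.5), Mmp8 (2456 and 15.5) and Prss57. Lyz2, which encodes lysozyme, had 87527.165 mean reads in bone marrow and 50392.515 in the pleural cavity, with fractional reads, and Chil3 had 76488.97 and 2849.5, also fractional. The higher ones were Cyba, the small subunit of the NADPH oxidase (24236 and 51787, log2 ratio 0.66), Mmp9, the gelatinase of tertiary granules (14050.5 and 34715, log2 ratio 0.87), and Pglyrp1, a bactericidal peptidoglycan recognition protein (19069 and 30458.5, log2 ratio 0.24). The direction of Pglyrp1 flipped to a log2 ratio of -0.21 when scaled to the median ratio of well-covered genes. Under that scaling Cyba and Mmp9 had log2 ratios of 0.21 and 0.42. All 3 lay within 2-fold, so their direction may differ from that in the authors' comparison. Cd63, a granule membrane tetraspanin, had 24740.5 and 9023.5 mean reads.

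Genes that process or regulate the granule proteins were partly listed. Of 7 genes for processing, 3 were listed. Serpinb1a, an inhibitor of elastase, proteinase 3 and cathepsin G, had 13927.5 mean reads in bone marrow and 11852.5 in pleural cavity eosinophils, a log2 ratio of -0.67. Rab27a and Ap3b1, which act in granule traffic, had log2 ratios of 0.19, which turned to -0.25 under the other scaling, and 0.48, which fell to 0.04. Ctsc, whose product activates the serine proteases, was not listed, which gives it no direction. Of 11 transcription factors of granulopoiesis, 6 were listed, 4 lower and 2 higher. Gfi1, a repressor needed for neutrophil maturation, had 292 mean reads in bone marrow and 10 in the pleural cavity, and Myb, a factor of progenitors, had 2095.5 and 84.5. Spi1, which encodes PU.1, was on the other side with 13472 and 26912.5, as was Gata1 with 2477 and 7241. The log2 ratio of Spi1 was 0.56, and 0.12 under the other scaling, so its direction may differ from that in the authors' comparison. That of Gata1 was 1.11, and 0.66 under the other scaling. Cebpa, Cebpb and Cebpe were not listed.

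**Figure D4:**
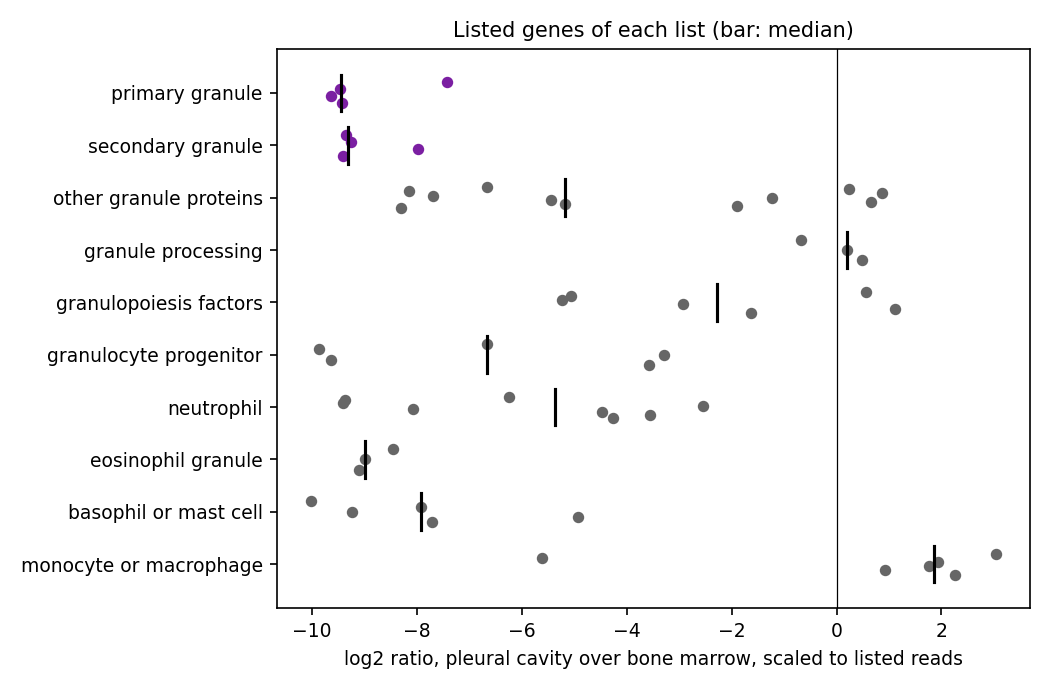
Log2 ratio of pleural cavity over bone marrow mean reads, scaled to the listed reads, for each listed gene of 10 lists, with a black bar at the median of each list. The 8 granule genes in purple lie between -9.64 and -7.43, and the listed monocyte or macrophage markers other than Ly6c2 lie above 0.

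The genes most like the members, by the distance of the log2 ratio from the members' median over the 2 tissue means and among genes with at least 17701 bone marrow reads, were S100a9, S100a8, Fcnb, Epx and Prg2. S100a8 and S100a9, which encode the calprotectin subunits, had log2 ratios of -9.41 and -9.37, and Fcnb, a lectin gene of granulocyte progenitors, had -9.63. Epx and Prg2, which encode eosinophil peroxidase and major basic protein, had -9.11 and -8.99. Mpo and its relative Epx stood at 1.41 Mpo reads per Epx read in bone marrow and 1.10 (0.986 to 1.22) in the pleural cavity. All 3 eosinophil granule genes were more than 64-fold lower, with Prg3 at -8.46. These 3 ratios lay above those of the 6 members in the narrow band and below those of Prtn3 and Lcn2.

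Markers of neutrophils moved with the members, and their part in the result was not tested. The methods report a high purity of the sorted eosinophils, which were also stained with Wright-Giemsa. All 8 of 8 neutrophil markers were listed and lower, but their log2 ratios reached from -9.41 to -2.55. The sum of the list was 557472 mean reads in bone marrow and 35199 in pleural cavity eosinophils, of which Retnlg, a resistin-like gene, had 147022 and 33927. Ly6g, the antigen that defines neutrophils in the mouse, had 1088 and 5 mean reads. The receptors Csf3r (3626.01 and 257.32, fractional), Cxcr2 (1178.58 and 135.18, fractional) and Il1r2 (1026 and 62) had log2 ratios of -4.25, -3.56 and -4.48, and Stfa2l1 was the only marker at 0 in the pleural cavity, with 27.5 in bone marrow. The granulocyte progenitor markers were lower in 5 of 5 listed genes of 6, with sums of 39224.78 and 469.555, led by Fcnb (20793 and 35), Ms4a3 (10299.5 and 14.5) and Prss57. Basophil and mast cell markers were lower in 5 of 5 listed genes of 6, with sums of 10756 and 60.5 and Prss34 at 3810.5 and 4.5, Cpa3 at 2802 and 17.5 and Mcpt8 as above.

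The eosinophil label was checked against its markers. Of 10 markers 9 were listed. Siglecf, which encodes the antigen used in the sort, had 7105.5 mean reads in bone marrow and 21371 in pleural cavity eosinophils, and Ccr3, the eotaxin receptor, had 17177.5 and 67556.5. The other 7 were lower, led by Prg2 with 555403.5 and 1482, Epx, and Ear1 with 126461.29 and 349.27, fractional. Il5ra was not listed. Monocyte and macrophage markers were higher in 5 of 6 listed genes of 10, with Adgre1, which encodes the antigen used to enrich the bone marrow cells and to gate the pleural cells, at 11406 and 73916.5, Csf1r at 3973.5 and 20627.5 and C1qb at 1093 and 5065. Ly6c2, which with Ly6g forms the antigen seen by Gr1 antibodies, was the exception with 22102.045 and 608.455, fractional. Gr1 was part of the pleural gate alone, and the share of the granule gene difference that goes with it was not tested.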

How the data were processed

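RNA of the sorted eosinophils was read as 100 bp pairs, and the sample titles gave the tissue. Per the submitters' processing notes and the methods, the authors trimmed the reads, used HISAT2 2.1.0 on GRCm38 and Bowtie2 2.2.5 on the transcripts, obtained expected counts from RSEM 1.2.8 and tested genes with DESeq2. The deposited expected counts are means that the authors took over 2 libraries per tissue, without correction for depth. The deposited columns of fold changes, p-values and q-values of the authors' own comparison were not used, and 0 columns of single samples were left aside. The depth per library is unknown.

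The members and lists were chosen with earlier results of these data known. Means were scaled to the sum of listed reads, with 0.5 mean reads added before taking log2, and described without a test. Counting intervals at 95% took the reads summed over 2 libraries as Poisson or binomial counts. RSEM estimates were called fractional where the summed reads of a tissue were over 0.001 from a whole number. Named genes were the 8 members, up to 3 genes with most reads and any of opposite direction from each other list, the 5 genes nearest in log2 ratio, and listed neighbors within 100 kb, of which a few are shown; further genes were named after their values were seen. Gene coordinates and lengths came from GENCODE M21 on GRCm38, an earlier release than the authors' M25 on the same assembly, and promoters from RefSeq. The scaling to the median ratio and the counting intervals were tested on simulated Poisson counts, which held no spread between libraries. The scaling to the sum of listed reads was not tested in this way. Whether the median ratio gives the right scale in a table that holds only genes called different was not tested. Python 3.11.15, numpy 2.4.6, pandas 2.3.3, scipy 1.17.1 and matplotlib 3.10.9 were used.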

Additional observations from a re-analysis of the deposited data

How the results depend on the processing

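All 40 member log2 ratios recomputed under 5 alternatives of scaling and pseudocount were negative, from -10.09 to -7.00, and the members remained 8 of 8 lower, more than 2-fold lower and more than 64-fold lower under each. The median log2 ratio of the members was -8.94 with unscaled reads and -9.83 when scaled to the median ratio of well-covered genes (a minimum of 1000 mean reads in each tissue), where the median of all listed genes shifted by 0.44 and -0.44. Both shifts follow from the scaling and move every gene alike. The share of listed genes more than 64-fold lower was 7.56% without a filter, 1.76% among genes above 3 mean reads in each tissue and 21.8% at or above the bone marrow reads of the lowest member. Per kilobase, the primary granule share of the members' reads was 29.8% in bone marrow and 32.0% in pleural cavity eosinophils. Without the 3 eosinophil granule genes in the denominator, the members made up 7.44% of the remaining bone marrow reads. No paired analysis was possible because the columns carry the mean of each tissue and no replicate number, and for the same reason no library could be left out. Pleural cavity values rest on as few as 38 mean reads, which limits the precision of the folds.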

Other observations

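Few genes of the remaining lists were in the table, and the values are given without explanation. Among receptors for the granule proteins, Fpr2, a receptor for the cathelicidin peptide, had 208.5 mean reads in bone marrow and 42.5 in pleural cavity eosinophils, whereas P2rx7, a purinergic receptor, had 84 and 875. Slc22a17, Lrp1 and F2rl1 were not listed. Of 6 B cell markers 2 were listed, Jchain with 447.5 and 39 mean reads and Ms4a1 with 107 and 366. Of 7 T and NK cell markers 2 were listed, Nkg7 with 10432 and 112 and Cd3d with 123 and 32. Of 6 erythroid markers 3 were listed and lower, and their summed reads were 471.5 and 3. Of 5 tumor and mesothelial markers, Krt18 alone was listed, with 518 and 1918. A gene that was not listed has no direction here.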
